A study of Mus musculus with 6 samples.

Results

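The genes described here encode the enzymes that conjugate drugs, toxins, steroids and products of lipid peroxidation in the kidney: the UDP-glucuronosyltransferases (UGT), the glutathione S-transferases (GST) and the sulfotransferases (SULT). They were chosen by name alone, as every gene of the deposited table whose symbol starts with Ugt1, Ugt2 or Ugt3 (UGT), Gst or Mgst (GST), or Sult (SULT). This gave 68 of 21367 genes, of which 21 belong to the UGT, 26 to the GST and 21 to the SULT family. Kidney mRNA was sequenced from 3 *Ptpn6*+/mev mice and from 3 wild-type littermates, each 7 weeks old and on a C57BL/6 background. *Ptpn6*+/mev mice carry 1 mutant copy of *Ptpn6*, which encodes the tyrosine phosphatase SHP-1, with a T-to-A change at a splice site (the viable motheaten allele, carried in the germline and so not limited to a cell type). The labels call this genotype a knockdown, but 1 normal copy is left. In all 6 mice the right kidney had been removed and the pedicle of the left kidney clamped for 34 min, and the left kidney was taken 24 h later, so that every library comes from a kidney after ischemia-reperfusion injury (IRI). The comparison asks how the levels of these enzymes differ between SHP-1-insufficient and wild-type kidneys after the same injury. Kidneys without IRI were not analysed here.

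Conjugation, or phase II metabolism, joins a water-soluble group to a compound so that it can be excreted. UGT enzymes sit in the endoplasmic reticulum and transfer a sugar, mostly glucuronic acid from UDP-glucuronate. GST enzymes add glutathione to electrophiles, and some of them reduce lipid hydroperoxides. SULT enzymes of the cytosol transfer sulfate from PAPS to phenols, catecholamines, steroids and cholesterol. In the kidney the cells of the proximal tubule carry out much of this work, and they are among the cells most sensitive to ischemia.

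The total count per library was between 10271590 and 12361745, and the 68 genes took between 0.375% and 0.537% of it. *Ptpn6* itself was measured at 11.8 to 14.7 FPKM in *Ptpn6*+/mev and 10.9 to 17.5 FPKM in wild-type kidneys (fragments scaled to transcript length and library size), so its mRNA does not separate the genotypes. Wild-type replicate 2 stood apart from the other 5 libraries. On the first principal component, which held 46.2% of the variance, it lay at 53.9 and the others between -17.5 and -3.76. Its 4 endothelial markers summed to 44.5 FPKM against 103 to 110.8 in the other libraries. For many of the genes described below the value without this library is given as well. The tissue label fits the marker genes, since the proximal tubule list summed to 497 to 868 FPKM and the loop of Henle gene *Umod* was measured at 1628 to 2556 FPKM. Of the liver markers, *Cps1* was at 0 in every library, while *Ttr* was at 19.2 to 38.1 FPKM and *Alb* at 1.70 to 6.29.

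Of the 68 genes, 39 passed the filter on low counts and were tested: 13 UGT, 22 GST and 4 SULT genes. A further 13 had some counts but too few to be tested, and 16 had none in any library. No gene of the 3 families passed the threshold of edgeR's quasi-likelihood test, a false discovery rate (FDR) under 0.05 over all 13036 tested genes, where 18 genes in all (0.138%) passed, 0.069% of the tested genes in each direction. An edgeR adjusted p below is from this test unless another is named. At an unadjusted p under 0.05, 13 of the 39 were lower and 0 were higher in *Ptpn6*+/mev kidneys. Over all tested genes 12.2% had such a p, with 6.71% lower and 5.53% higher. By family, 9 of 22 GST genes (40.9%), 4 of 13 UGT genes (30.8%) and 0 of 4 SULT genes were lower. The other count tests passed more of them. With DESeq2, 7 genes of the families had an FDR under 0.05 (2.98% of all tested genes did), and with edgeR's exact test 6 did (2.99% of all). All of these were lower in *Ptpn6*+/mev kidneys and none was a SULT gene.

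The direction was shared by most of the tested genes of 2 families. The log2 fold change, taken throughout as *Ptpn6*+/mev over wild-type, was below 0 in 11 of 13 UGT genes and 17 of 22 GST genes but in only 2 of 4 SULT genes, against 50.5% of all tested genes. By family the median of these values was -0.47 for UGT, -0.27 for GST and -0.17 for SULT genes, against -0.002 for all tested genes. Without wild-type replicate 2 these medians were -0.14 for UGT, -0.13 for GST and 0.44 for SULT genes, so their size depended on that library. The sign of the SULT median, over 4 genes, also turned without *Ptpn6*+/mev replicate 2 (0.0098), with limma on log2(FPKM + 1) (0.094) and log2(FPKM + 0.1) (0.11), and with replicate number as a block (0.12). The FPKM values of the groups did not overlap in 11 of the 39 genes, of which 10 (3 UGT and 7 GST genes) were lower and 1 (*Gstm7*) was higher in every *Ptpn6*+/mev mouse. Over all tested genes 20.4% did not overlap, with 6.38% lower and 14% higher. In bulk kidney RNA, fewer cells of a type and less RNA per cell cannot be told apart.

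**Figure D1:**
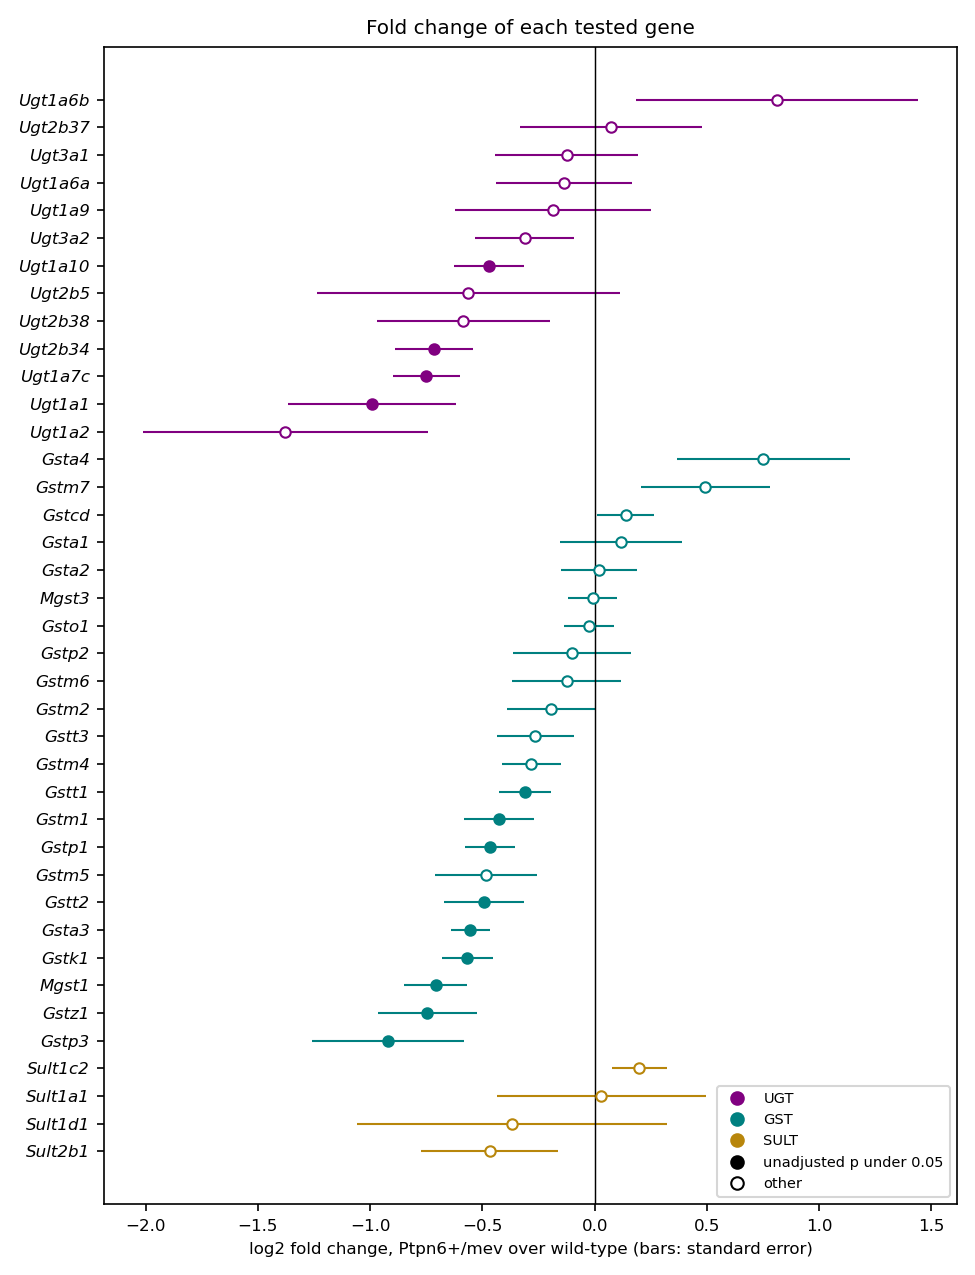
Log2 fold change of the 39 tested genes (x axis, *Ptpn6*+/mev over wild-type; bars are standard errors of the edgeR fit) by family, with filled points for an unadjusted p under 0.05. All 13 filled points lie below 0, 9 of them GST and 4 UGT genes, and no SULT gene is filled.

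The GST family was the most abundant, and 5 of its members (*Gsta2*, *Gstm5*, *Gstp1*, *Mgst1* and *Gstm1*) made up 70.9% of its summed FPKM. That sum was 3785, 3476 and 3139 FPKM in the *Ptpn6*+/mev mice, given here and below in the order of their replicate numbers, and 3937, 4078 and 4006 in the wild-type mice. The highest *Ptpn6*+/mev kidney was thus below the lowest wild-type kidney, with means of 3467 ± 323 (SD, n = 3) and 4007 ± 70.8 (SD, n = 3). The classes of the family differed among themselves, and the 4 alpha genes had both the lowest FDR and the highest fold change of the family among them.

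**Figure D2:**
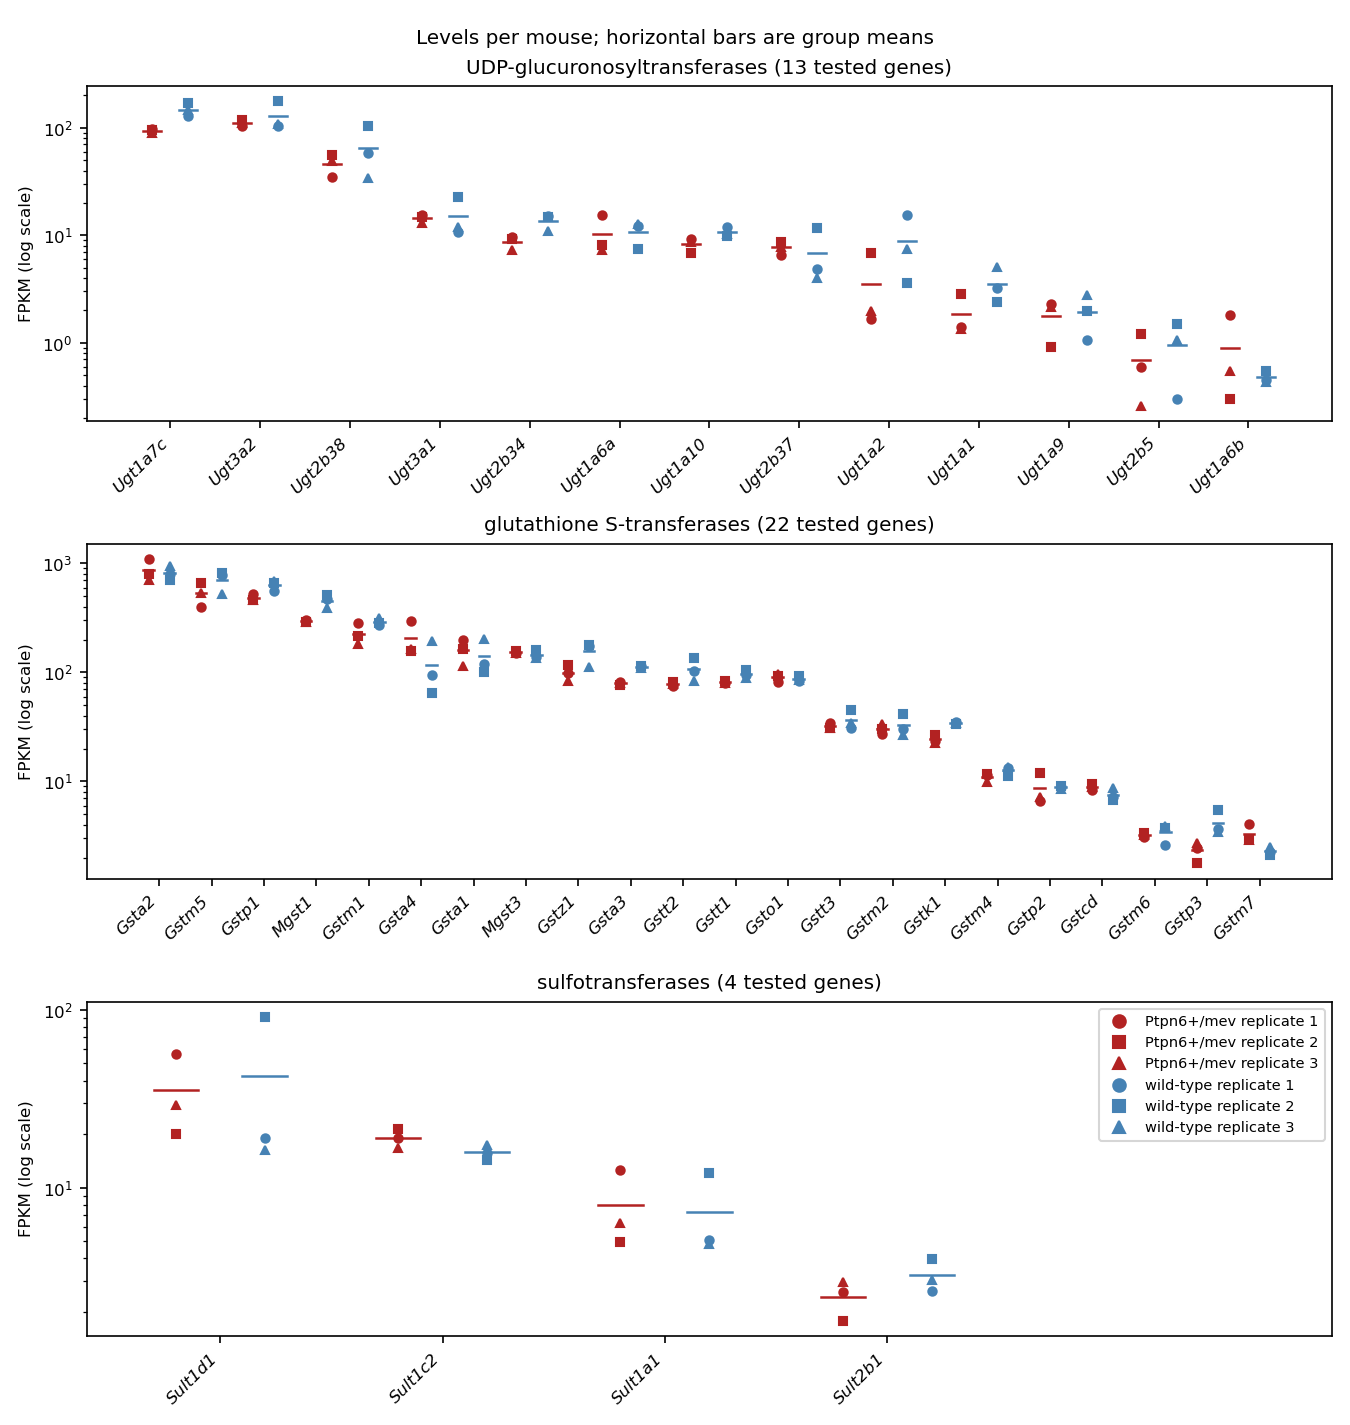
FPKM on a log axis of each tested gene in each of the 6 mice, in 3 panels by family and ordered by mean level. Points are mice, coloured by genotype and shaped by replicate number, and horizontal bars are group means: *Gsta3*, *Gstk1*, *Mgst1* and *Ugt1a7c* have every *Ptpn6*+/mev point below every wild-type point, while *Sult1d1* in wild-type replicate 2 lies far above the other wild-type points.

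*Gsta3* (chr1:21240589-21265661, GRCm38), an alpha-class enzyme of the cytosol, was the gene of the 3 families with the lowest p. It was measured at 82.0, 76.6 and 79.3 FPKM in *Ptpn6*+/mev and at 114, 113 and 110.5 in wild-type mice. The mice of each group lay close together and the groups were well apart, with means of 79.3 ± 2.71 and 113 ± 1.87 (SD, n = 3 each). Its fold change was 0.681, a log2 fold change of -0.56 (standard error 0.09, edgeR adjusted p = 0.0685). It passed with DESeq2 (adjusted p = 8.4e-05), with the exact test (adjusted p = 0.00085) and without wild-type replicate 2 (adjusted p = 0.0243 from edgeR).

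The other alpha genes lie together on chromosome 9 and behaved differently from *Gsta3*. *Gsta2*, the most abundant gene of the 3 families, was at 1096, 792 and 701 FPKM in *Ptpn6*+/mev and 800.3, 698 and 947 in wild-type mice. The groups overlapped, and the log2 fold change was 0.02 (standard error 0.17) and -0.05 without wild-type replicate 2. *Gsta4* (chr9:78182774-78209349), which conjugates 4-hydroxynonenal, a product of lipid peroxidation, was at 295, 157 and 163 FPKM in *Ptpn6*+/mev and 94.6, 64.7 and 193 in wild-type mice. Its mean was higher in *Ptpn6*+/mev kidneys, 205 ± 78.1 against 117 ± 66.9 (SD, n = 3 each), but wild-type replicate 3 lay above *Ptpn6*+/mev replicates 2 and 3. The log2 fold change of 0.75 (standard error 0.39) did not pass the test (adjusted p = 0.489 from edgeR) and was 0.39 without *Ptpn6*+/mev replicate 1, 0.47 without wild-type replicate 2 and 1.28 without wild-type replicate 3. *Gsta1* had a log2 fold change of 0.12 (standard error 0.27). It shares 81.8% of the 100-base windows of its transcript with *Gsta2* or with other genes, so the division of reads between *Gsta1* and *Gsta2* is uncertain, whereas *Gsta3* and *Gsta4* share none.

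*Mgst1* (chr6:138140316-138156755), a membrane-bound enzyme of the endoplasmic reticulum and the outer mitochondrial membrane that also reduces lipid hydroperoxides, showed the same pattern as *Gsta3* at a higher level. It was measured at 300.4, 292 and 292 FPKM in *Ptpn6*+/mev and 468, 508 and 392 in wild-type mice. The spread among *Ptpn6*+/mev mice was small, and the lowest wild-type kidney lay well above them. The log2 fold change was -0.71 (standard error 0.14, edgeR adjusted p = 0.103), with an adjusted p of 0.0287 without wild-type replicate 2 and 0.0319 without wild-type replicate 3. *Mgst3*, of the same class, was at 137 to 161 FPKM over the 6 mice and had a log2 fold change of -0.01 (standard error 0.11). *Mgst2* had at most 2 counts in a library.

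The promoters of *Gsta3* and *Mgst1* are shown because these were the GST genes with the lowest p and both hold TGACNNNGC. These letters are the core of the antioxidant response element, to which the transcription factor NRF2 binds. The windows run 300 bases 5′ to 3′ on the gene's strand, from 250 bases before to 50 after the start of the gene in RefSeq (GRCm38.p6), with the match in capitals.
Gsta3, chr1:21240335-21240634, + strand: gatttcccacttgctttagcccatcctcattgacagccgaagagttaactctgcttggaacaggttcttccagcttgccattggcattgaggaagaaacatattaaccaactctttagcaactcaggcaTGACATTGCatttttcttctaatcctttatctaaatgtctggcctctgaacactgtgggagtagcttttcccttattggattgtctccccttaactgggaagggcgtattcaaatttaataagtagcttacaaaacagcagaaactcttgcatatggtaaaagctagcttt
Mgst1, chr6:138140277-138140576, + strand: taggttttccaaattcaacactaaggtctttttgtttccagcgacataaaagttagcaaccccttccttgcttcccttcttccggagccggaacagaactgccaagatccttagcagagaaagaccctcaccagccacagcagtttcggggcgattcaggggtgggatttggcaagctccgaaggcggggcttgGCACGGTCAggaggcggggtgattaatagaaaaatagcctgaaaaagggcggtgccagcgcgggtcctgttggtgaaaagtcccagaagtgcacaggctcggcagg
In *Gsta3* the match reads along the gene and starts 121 bases before its start. In *Mgst1* it reads on the opposite strand, so that its reverse complement is printed, and starts 56 bases before. RefSeq gives *Mgst1* another start as well, whose window (chr6:138141337-138141636) holds no match and is not printed. Both strands were searched. A match was present in 4 of 45 windows of the tested genes (8.89%) and in 2 of 15 windows of the genes that were lower at an unadjusted p under 0.05 (13.3%), against 12.4% of 32851 windows of all genes. The other windows with a match were those of *Gstm5* and *Gstm7*, and in *Gstm5* it overlapped a GCGTG, the core letters to which the aryl hydrocarbon receptor binds. A match is a description of these windows only.

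*Gstk1* (chr6:42245935-42250447), the enzyme of mitochondria and peroxisomes, was at 23.6, 26.7 and 22.5 FPKM in *Ptpn6*+/mev and 35.4, 33.3 and 34.1 in wild-type mice. The groups were again apart, with a log2 fold change of -0.57 (standard error 0.11, edgeR adjusted p = 0.104). *Gstp1* (chr19:4035407-4037985), the main pi-class gene, was at 523, 459.5 and 465 FPKM in *Ptpn6*+/mev and 556, 664 and 683 in wild-type mice. Every *Ptpn6*+/mev value was below every wild-type value, and the log2 fold change was -0.47 (standard error 0.11, edgeR adjusted p = 0.150). *Gstp1* shares 52.8% of its windows with *Gstp2* or another gene, but *Gstp2* was measured at no more than 12.0 FPKM in any mouse. *Gstp1* and *Gstk1*, like *Mgst1*, passed with DESeq2 and with the exact test.

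The remaining genes with an unadjusted p under 0.05 were *Gstz1*, *Gstt1*, *Gstt2*, *Gstp3* and *Gstm1*. *Gstz1*, maleylacetoacetate isomerase of tyrosine breakdown, was at 97.8, 116 and 83.4 FPKM in *Ptpn6*+/mev and 176, 179 and 112 in wild-type mice. Only *Ptpn6*+/mev replicate 2 and wild-type replicate 3 overlapped, and the log2 fold change was -0.74 (standard error 0.22, edgeR adjusted p = 0.219, and 0.0362 with DESeq2). *Gstt1* and *Gstt2*, theta-class neighbours on chromosome 10, were lower in every *Ptpn6*+/mev mouse, with log2 fold changes of -0.31 (standard error 0.12) and -0.49 (standard error 0.18). Without wild-type replicate 2, in which both were highest, these were -0.20 and -0.27. The low *Gstp3*, at 1.77 to 5.51 FPKM, had a log2 fold change of -0.92 (standard error 0.34) and likewise no overlap. It too was highest in wild-type replicate 2, without which the value was -0.64 (unadjusted p = 0.0926 from edgeR).

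The mu-class genes form a cluster on chromosome 3 and differed among themselves. *Gstm5*, the second most abundant GST gene, was at 401, 660.5 and 533 FPKM in *Ptpn6*+/mev and 783, 815 and 523 in wild-type mice. Wild-type replicate 3 lay among the *Ptpn6*+/mev mice, and the log2 fold change of -0.48 (standard error 0.23) did not pass (adjusted p = 0.442 from edgeR). *Gstm1* was at 282, 214 and 181 FPKM in *Ptpn6*+/mev and 270.4, 284 and 313 in wild-type mice, with overlap of a single *Ptpn6*+/mev kidney and a log2 fold change of -0.43 (standard error 0.16, edgeR adjusted p = 0.322). *Gstm7* was the exception. It was low throughout, at 4.09, 2.96 and 2.90 FPKM in *Ptpn6*+/mev and 2.27, 2.11 and 2.52 in wild-type mice, and was higher in every *Ptpn6*+/mev kidney. Its log2 fold change of 0.49 (standard error 0.29) did not pass (adjusted p = 0.563 from edgeR) and was 0.26 without *Ptpn6*+/mev replicate 1.

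The other GST genes differed little between the groups. The omega-class *Gsto1*, which also reduces dehydroascorbate, was at 81.0 to 96.1 FPKM in all 6 mice, with a log2 fold change of -0.03 (standard error 0.11). *Gstcd*, which holds the C-terminal domain of the family, had a log2 fold change of 0.14 (standard error 0.13). Values of *Gstm2*, *Gstm4*, *Gstm6*, *Gstp2* and *Gstt3* lay between -0.28 and -0.10 on the same scale, with overlap of the groups in each. Without wild-type replicate 2 the log2 fold change was 0.05 for *Gstm2*, -0.04 for *Gstt3*, -0.07 for *Gstm6*, -0.05 for *Gstp2*, 0.06 for *Gsto1*, 0.06 for *Gstcd*, 0.10 for *Mgst3* and -0.06 for *Gsta1*, so the sign of *Gstm2*, *Gsto1*, *Mgst3* and *Gsta1*, like that of *Gsta2*, turned with that library. The 4 GST genes under the filter (*Gstm3*, *Gsto2*, *Gstt4* and *Mgst2*) had at most 8 counts in a library.

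**Figure D3:**
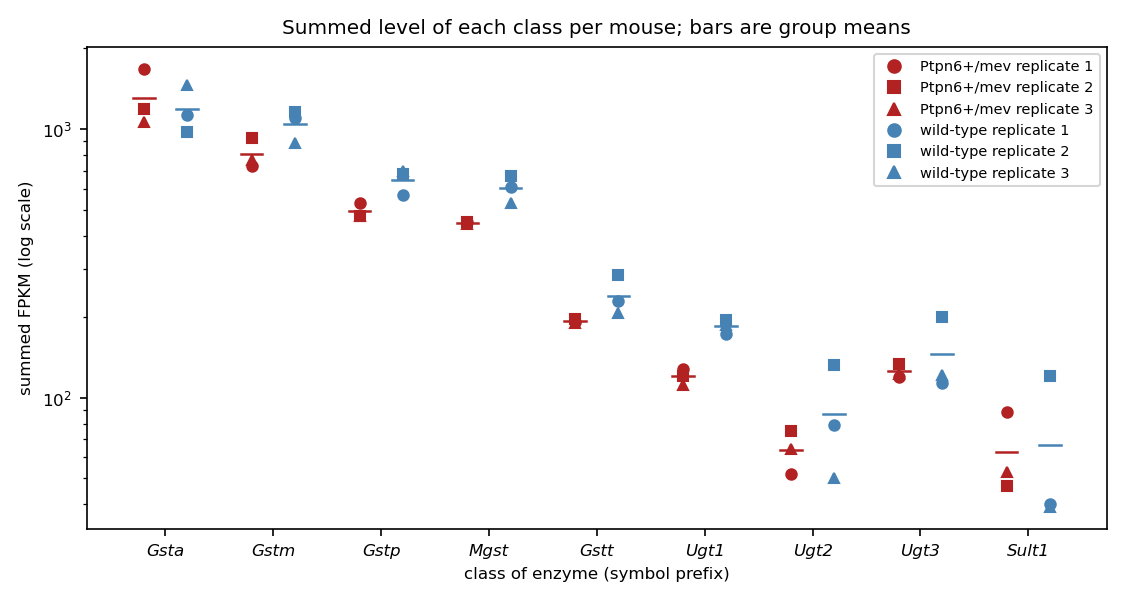
Summed FPKM on a log axis of 9 classes of enzyme, by the start of the gene symbol, in each of the 6 mice, with group means as bars. The Gstp, Mgst and Ugt1 sums of the *Ptpn6*+/mev mice all lie below those of the wild-type mice, as the Gstt sums do, while Gsta and Sult1 overlap widely.

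The levels were also summed by class. The 3 Mgst genes summed to 442 to 451 FPKM in *Ptpn6*+/mev and 529 to 669 in wild-type mice, and the 3 Gstp genes to 473 to 532 and 569 to 695. The 4 Gstt genes summed to 189.7 to 196 and 206 to 285. None of these 3 classes overlapped between the groups. In the Mgst class *Mgst1* was lower, while *Mgst3* had means of 153 FPKM in *Ptpn6*+/mev and 146 in wild-type mice. *Gstp1* made up most of the Gstp sum, with means of 483 and 634 FPKM in sums of 493 and 647. The 7 Gstm genes summed to 729 to 923 FPKM in *Ptpn6*+/mev and 883 to 1158 in wild-type mice, which overlapped. The 4 Gsta genes summed to 1058 to 1673 and 976 to 1453, with the higher mean in *Ptpn6*+/mev mice (1306 ± 324 against 1186 ± 244, SD, n = 3 each).

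The UGT family summed to 299, 329 and 298.5 FPKM in *Ptpn6*+/mev and 365, 525 and 357 in wild-type mice. The groups did not overlap, but wild-type replicate 2 lay far above the other wild-type kidneys. *Ugt1a7c* and *Ugt3a2* together made up 66.4% of the mean sum, and *Ugt2b38* brought it to 81.9%. Of the 4 genes with an unadjusted p under 0.05, 3 belong to the Ugt1 locus (*Ugt1a7c*, *Ugt1a10* and *Ugt1a1*) and 1 is *Ugt2b34*.

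The Ugt1 genes share their last exons. Each has its own first exon, which encodes the part that binds the substrate, and all are spliced to the same exon 2 (chr1:88215044-88215175, GENCODE M21 on GRCm38). The junctions are shown because reads within the shared exons do not tell these genes apart. Reads that reach a first exon can, but only where its sequence occurs in no other gene. The last 20 bases of the first exon are in lower case and the first 20 bases of the shared exon 2 in capitals, 5′ to 3′ on the + strand.
Ugt1a7c: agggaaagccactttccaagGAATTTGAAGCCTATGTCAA
Ugt1a10: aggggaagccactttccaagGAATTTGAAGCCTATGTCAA
Ugt1a1: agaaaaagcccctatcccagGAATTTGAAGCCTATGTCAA
Ugt1a2: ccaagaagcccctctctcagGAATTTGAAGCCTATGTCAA
Ugt1a6a: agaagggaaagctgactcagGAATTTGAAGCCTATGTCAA
Ugt1a6b: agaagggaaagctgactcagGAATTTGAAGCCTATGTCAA
Ugt1a9: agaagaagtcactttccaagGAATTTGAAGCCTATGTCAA
The sequence before the junction is the same in *Ugt1a6a* and *Ugt1a6b*. Between 57.2% and 100% of the 100-base windows of the tested Ugt1 transcripts occur in another gene, and *Ugt1a6a* has no window of its own. For *Ugt1a7c* the share was 68.8%. In this annotation the last exon of *Ugt1a7c* runs 998 bases past the next longest of the locus, and reads there would be counted for *Ugt1a7c* alone. The annotation release used for the deposited counts may differ in this.

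*Ugt1a7c* (chr1:88095062-88220002), whose product glucuronidates phenols, was at 96.4, 94.5 and 89.6 FPKM in *Ptpn6*+/mev and 128, 168 and 147 in wild-type mice. The *Ptpn6*+/mev mice lay within a narrow range below every wild-type mouse, with means of 93.5 ± 3.53 and 148 ± 20.1 (SD, n = 3 each). The fold change was 0.594, a log2 fold change of -0.75 (standard error 0.15, edgeR adjusted p = 0.103). It passed with DESeq2 (adjusted p = 0.00082), with the exact test (adjusted p = 0.00176) and without wild-type replicate 2 (adjusted p = 0.0184, log2 fold change -0.56). *Ugt1a7c* held between 79.0% and 89.9% of the counts of the locus, so the sum over the locus, which does not depend on how shared reads were divided within it, differed by about as much. That sum was 3465, 3366 and 3360 counts in *Ptpn6*+/mev and 4906, 6234 and 6092 in wild-type mice, with a log2 fold change of -0.71 (standard error 0.12). With the locus taken as 1 gene, 1 of the 6 tested UGT genes outside it (*Ugt2b34*) was lower at an unadjusted p under 0.05.

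*Ugt1a10* was at 9.19, 6.86 and 8.72 FPKM in *Ptpn6*+/mev and 11.9, 9.78 and 10.2 in wild-type mice, lower in every *Ptpn6*+/mev mouse, with a log2 fold change of -0.47 (standard error 0.16, edgeR adjusted p = 0.274). *Ugt1a1*, the enzyme of bilirubin conjugation, was at 1.40, 2.85 and 1.35 FPKM in *Ptpn6*+/mev and 3.24, 2.38 and 5.03 in wild-type mice. The groups overlapped, and the log2 fold change was -0.99 (standard error 0.38, edgeR adjusted p = 0.333). *Ugt1a2* ranged over the 6 mice from 1.65 to 15.5 FPKM, with a log2 fold change of -1.38 and a large standard error of 0.63. That value was -1.74 without wild-type replicate 2 (standard error 0.50, unadjusted p = 0.0059 from edgeR). *Ugt1a6a*, *Ugt1a9* and *Ugt1a6b* had log2 fold changes of -0.14, -0.18 and 0.81, each with overlap and a standard error of at least 0.30. Without wild-type replicate 2 *Ugt1a6a* had -0.32.

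The Ugt2 genes lie on chromosome 5 and encode enzymes for steroids and other lipophilic compounds. *Ugt2b34* (chr5:86889767-86906937) was at 9.60, 9.21 and 7.35 FPKM in *Ptpn6*+/mev and 15.0, 14.8 and 11.0 in wild-type mice. The groups did not overlap, and the log2 fold change was -0.72 (standard error 0.17, edgeR adjusted p = 0.150, 0.0163 with DESeq2 and 0.0146 with the exact test). *Ugt2b38* was at 34.9, 55.7 and 48.8 FPKM in *Ptpn6*+/mev and 58.8, 104 and 34.0 in wild-type mice. Its highest and its lowest value were both in wild-type mice, and the log2 fold change of -0.59 (standard error 0.39) was -0.04 without wild-type replicate 2. *Ugt2b37* was at 6.56, 8.74 and 7.82 FPKM in *Ptpn6*+/mev and 4.83, 11.8 and 4.04 in wild-type mice, with a log2 fold change of 0.07 (standard error 0.41) that was 0.76 without wild-type replicate 2 (adjusted p = 0.0753 from edgeR).

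The Ugt3 genes, on chromosome 15, encode enzymes that transfer sugars other than glucuronic acid. *Ugt3a2* was at 104, 118 and 109.7 FPKM in *Ptpn6*+/mev and 103, 177 and 109 in wild-type mice. Only wild-type replicate 2 stood out, and the log2 fold change of -0.31 (standard error 0.22) was 0.02 without it. *Ugt3a1* was at 15.3, 14.9 and 13.0 FPKM in *Ptpn6*+/mev and 10.6, 22.9 and 11.9 in wild-type mice, and its log2 fold change of -0.13 (standard error 0.32) was 0.38 without that library. Both Ugt3 genes, *Ugt2b38* and *Ugt2b37* thus depended on a single wild-type kidney, in contrast to *Ugt1a7c*, *Ugt1a10* and *Ugt2b34*, whose groups were apart.

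**Figure D4:**
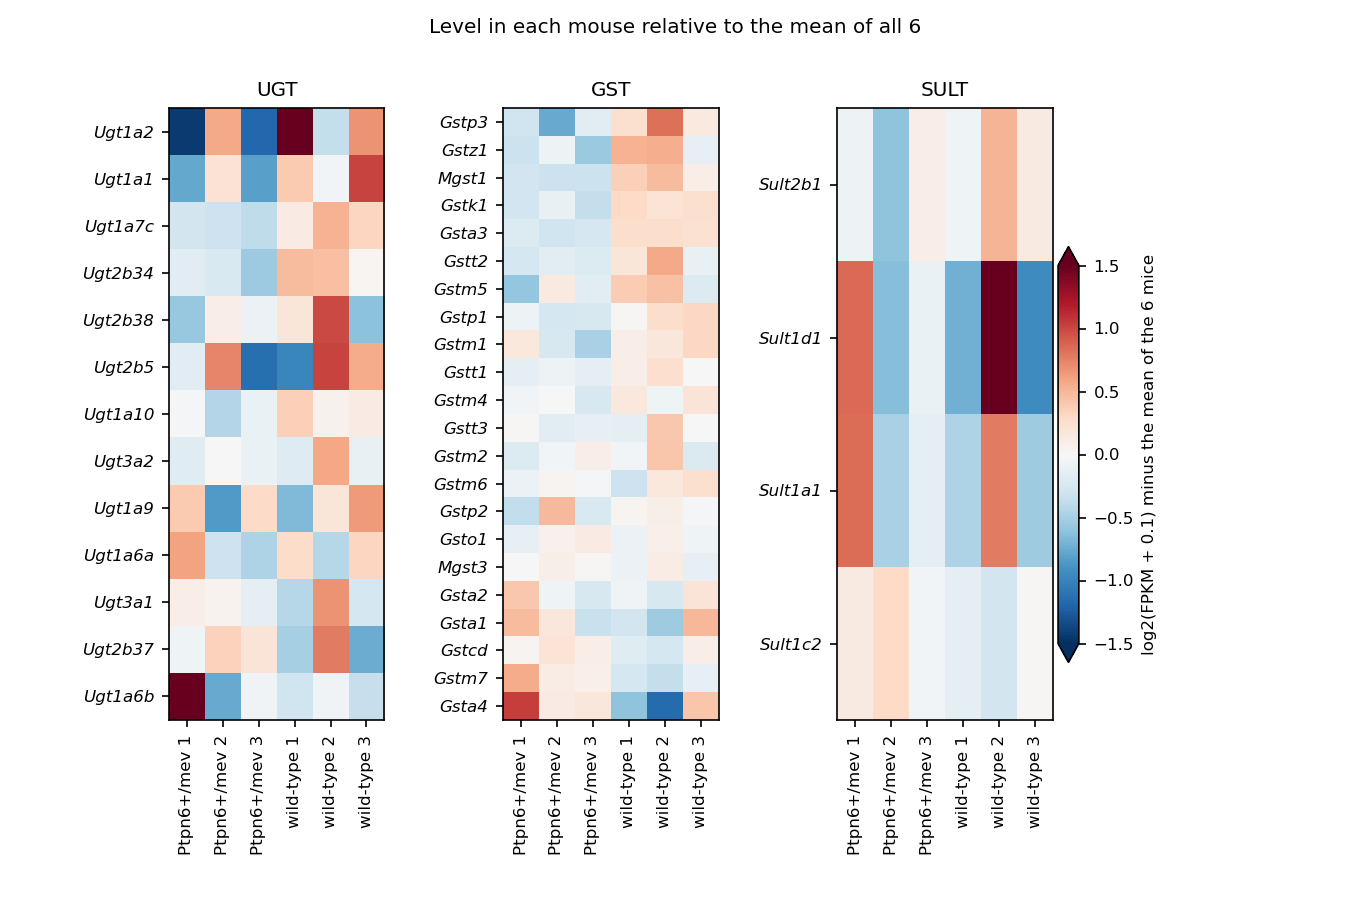
Level of each tested gene in each mouse as log2(FPKM + 0.1) minus the mean of the 6 mice, by family and ordered by log2 fold change, with blue below and red above the mean (colours end at 1.5 in either direction). The upper rows of the GST panel are mostly blue in the 3 *Ptpn6*+/mev columns and mostly red in the wild-type columns, whereas *Sult1d1*, *Ugt2b38* and *Ugt2b37* are reddest in wild-type replicate 2.

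Of the 8 UGT genes under the filter, 5 (*Ugt1a8*, *Ugt2a1*, *Ugt2a2*, *Ugt2b1* and *Ugt2b36*) had no count in any library, which allows up to 3 counts, or 0.243 to 0.292 CPM (counts scaled to library size). *Ugt1a5*, *Ugt2a3* and *Ugt2b35* had at most 8.98 counts in a library. *Ugt2b5*, which passed the filter, was at 0.26 to 1.49 FPKM with a log2 fold change of -0.56 (standard error 0.68) that was -0.07 without wild-type replicate 2. The limit that a count of 0 allows covers counting error only.

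The SULT family had the lowest levels, and 4 of its 21 genes were tested. It summed to 92.5, 48.9 and 56.5 FPKM in *Ptpn6*+/mev and 43.5, 125 and 42.8 in wild-type mice. The groups overlapped widely, with means of 66.0 ± 23.3 and 70.4 ± 47.2 (SD, n = 3 each). No SULT gene passed with DESeq2 or with either edgeR test, and 0 of 4 had an unadjusted p under 0.05.

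*Sult1d1* (chr5:87554645-87569027), which sulfates catecholamines and made up 56.9% of the family, was at 56.6, 20.1 and 29.2 FPKM in *Ptpn6*+/mev and 19.0, 91.5 and 16.3 in wild-type mice. *Ptpn6*+/mev replicate 1 and wild-type replicate 2 were high, and the other 4 mice lay between 16.3 and 29.2. The log2 fold change was -0.37 (standard error 0.69, edgeR adjusted p = 0.893) with all libraries and 0.96 (standard error 0.35, adjusted p = 0.197) without wild-type replicate 2, so its direction rests on that library. *Sult1a1*, for phenols, had a like pattern at 12.6, 4.94 and 6.31 FPKM in *Ptpn6*+/mev and 5.05, 12.1 and 4.80 in wild-type mice. The log2 difference between the groups was 0.03 (standard error 0.46) and 0.72 without wild-type replicate 2 (adjusted p = 0.263 from edgeR).

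*Sult1c2* was at 19.0, 21.3 and 16.8 FPKM in *Ptpn6*+/mev and 15.7, 14.3 and 17.4 in wild-type mice. Wild-type replicate 3 overlapped *Ptpn6*+/mev replicate 3, and the log2 fold change was 0.20 (standard error 0.12, edgeR adjusted p = 0.589), or 0.11 without *Ptpn6*+/mev replicate 2. *Sult2b1*, which sulfates cholesterol, was at 2.60, 1.77 and 2.94 FPKM in *Ptpn6*+/mev and 2.63, 3.96 and 3.04 in wild-type mice, with a log2 fold change of -0.47 (standard error 0.30) that was -0.26 without wild-type replicate 2. Of the 17 SULT genes under the filter, 11 had no count in any library, among them all 8 genes of the Sult2a group, which sulfate hydroxysteroids and bile acids in the liver. *Sult5a1* had 18, 7 and 9 counts in *Ptpn6*+/mev and 7, 6 and 10 in wild-type mice, which overlapped. *Sult1e1*, estrogen sulfotransferase, had 1, 1 and 2 counts in *Ptpn6*+/mev and 1, 19 and 2 in wild-type mice, with most of its reads in wild-type replicate 2.

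Over all 39 tested genes, wild-type replicate 2 held the highest FPKM in 17 and *Ptpn6*+/mev replicate 3 in 1, while *Ptpn6*+/mev replicate 3 held the lowest in 11. The same was not counted over the other genes, so nothing particular to the families is read from it. Without wild-type replicate 2, 8 of 22 GST and 5 of 13 UGT genes were lower at an unadjusted p under 0.05, against 8.89% of all genes tested in that fit. Then 2 UGT genes (*Ugt2b37* and *Ugt3a1*) and 2 SULT genes (*Sult1a1* and *Sult1d1*) were higher by the same measure, against 8.36% of all genes tested. In that fit 3 genes (*Ugt1a7c*, *Gsta3* and *Mgst1*) passed the FDR, where 1.8% of all tested genes did. The counts of lower GST and UGT genes were therefore about as large without the library that stood apart.

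The genes that feed and regulate conjugation were read from lists outside the 3 families, and none of the 50 tested genes of the 7 lists passed the FDR of edgeR's quasi-likelihood test. By unadjusted p under 0.05, 18 of the 50 were lower and 1 was higher. Over all tested genes 6.71% were lower and 5.53% higher by that measure. With DESeq2 10 of the 50 passed the FDR (2.98% of all tested genes did), with the exact test 10 (2.99%) and without wild-type replicate 2 5 (1.8%). All of these list genes were lower in *Ptpn6*+/mev kidneys. *Anpep*, *Nr1i2* and *Hmox1* passed in each of these 3 fits, and *Slc13a1* with DESeq2 and the exact test. At an unadjusted p under 0.05, 7 of 17 genes of glutathione synthesis and breakdown were lower and 1 was higher. *Anpep*, a brush border aminopeptidase that cleaves cysteinylglycine, was at 7.53, 13.6 and 8.83 FPKM in *Ptpn6*+/mev and 20.7, 18.1 and 16.3 in wild-type mice, which did not overlap (log2 fold change -0.92, standard error 0.20, edgeR adjusted p = 0.114). *Chac1*, which degrades glutathione, was higher in every *Ptpn6*+/mev mouse, at 3.91, 3.58 and 3.34 FPKM against 2.65, 1.89 and 2.46 (log2 fold change 0.56, standard error 0.21, edgeR adjusted p = 0.335). *Nat8* and *Acy3*, which respectively add and remove the acetyl group of mercapturic acids, the end products of GST conjugation, were both among the 7 that were lower.

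The other co-substrates are UDP-glucuronate and PAPS. All 3 genes of UDP-glucuronate supply had log2 fold changes below 0, with a median of -0.27 (-0.07 without wild-type replicate 2), and none had an unadjusted p under 0.05. *Ugdh*, which makes UDP-glucuronate, had a log2 fold change of -0.27 (standard error 0.16), which was -0.46 without *Ptpn6*+/mev replicate 1 and -0.17 without *Ptpn6*+/mev replicate 2. Of 8 genes of sulfate and PAPS supply, 1 was lower at an unadjusted p under 0.05, against 6.71% of all tested genes. This was *Slc13a1*, the sodium-sulfate cotransporter of the proximal tubule, at 71.3, 163 and 99.0 FPKM in *Ptpn6*+/mev and 185, 217 and 223 in wild-type mice (log2 fold change -0.98, standard error 0.27, edgeR adjusted p = 0.194). *Slc26a1*, the sulfate exchanger of the basolateral membrane, had a log2 fold change of 0.46 (standard error 0.28; 0.18 without wild-type replicate 2), and the PAPS synthases *Papss1* and *Papss2* had -0.10 and -0.11. *Gusb*, the glucuronidase that removes glucuronic acid, had a log2 fold change of 0.11 (standard error 0.11) and -0.00066 without wild-type replicate 2.

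Among the 6 export pumps for conjugates, *Abcc2* and *Abcc4* were lower at an unadjusted p under 0.05, against 6.71% of all tested genes. *Abcc2*, of the apical membrane, was at 52.9, 41.1 and 40.0 FPKM in *Ptpn6*+/mev and 54.4, 56.6 and 60.6 in wild-type mice (log2 fold change -0.43, standard error 0.12, edgeR adjusted p = 0.208). *Abcc3*, of the basolateral membrane, had a log2 fold change of 0.23 (standard error 0.24) and 0.39 without wild-type replicate 2.

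Of 8 tested regulators of conjugation genes, 4 were lower at an unadjusted p under 0.05 and 0 were higher. The shares over all tested genes were 6.71% lower and 5.53% higher. *Nr1i2* and *Ppara* were lower in every *Ptpn6*+/mev mouse, while the groups overlapped for *Hnf4a*. *Nr1i2*, the pregnane X receptor, was at 3.61, 3.01 and 2.68 FPKM in *Ptpn6*+/mev and 5.50, 5.90 and 5.81 in wild-type mice (log2 fold change -0.96, standard error 0.17, edgeR adjusted p = 0.0852). *Nfe2l2*, the gene for NRF2, had a log2 fold change of -0.20 (standard error 0.14), and *Keap1*, its inhibitor, -0.11 (standard error 0.09). Of 10 NRF2 targets outside the families, 5 were lower and 0 higher by the same measure (*Nqo1*, *Hmox1*, *Osgin1*, *Txnrd1* and *Gclm*). *Hmox1*, heme oxygenase, was at 409, 351 and 361 FPKM in *Ptpn6*+/mev and 496, 466 and 552 in wild-type mice (log2 fold change -0.50, standard error 0.09, edgeR adjusted p = 0.0873). *Slc7a11*, the cystine importer, was at 0.53 to 0.95 FPKM, with a log2 fold change of 0.48 (standard error 0.33) and 0.85 without wild-type replicate 2.

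**Figure D5:**
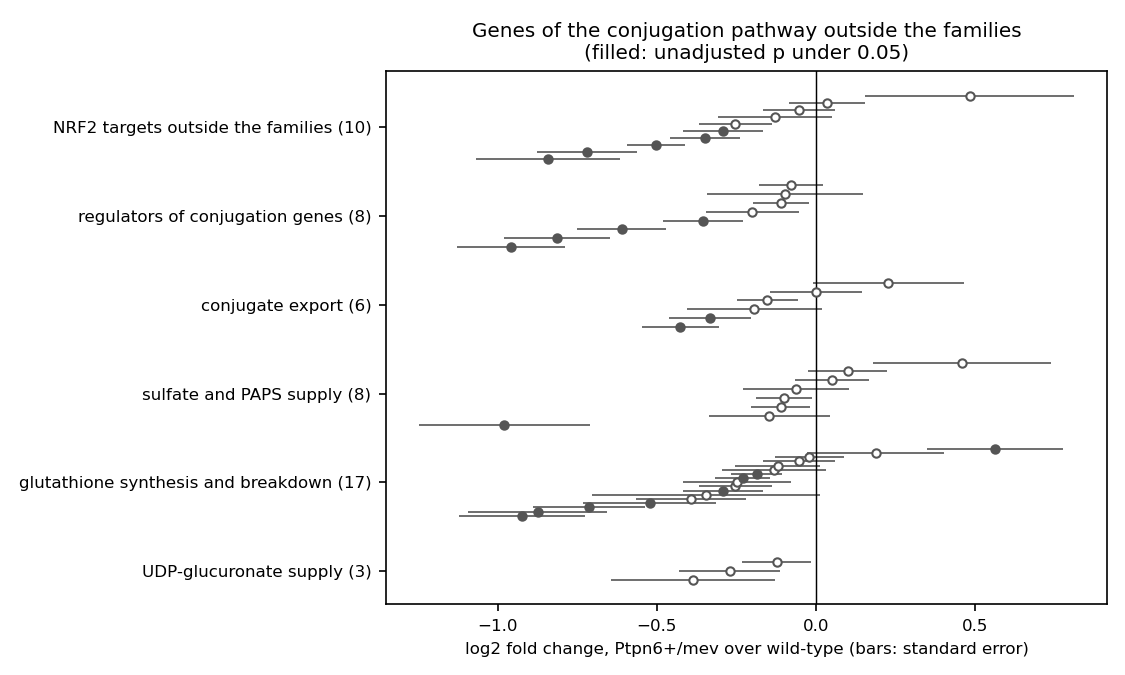
Log2 fold change (x axis, *Ptpn6*+/mev over wild-type; bars are standard errors) of the tested genes of 6 lists outside the 3 families, with the number of tested genes in brackets and filled points for an unadjusted p under 0.05. Filled points lie below 0 in 5 of the lists, and the single filled point above 0 is *Chac1*.

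No cell type marker passed the FDR of edgeR's quasi-likelihood test. By unadjusted p under 0.05, 6.71% of all tested genes were lower and 5.53% higher. Of 10 proximal tubule markers, 5 (*Lrp2*, *Cubn*, *Slc22a6*, *Slc13a3* and *Slc7a13*) were lower at an unadjusted p under 0.05 and 0 were higher, with a median log2 fold change of -0.44, while *Slc5a2*, *Slc5a12* and *Slc22a7* lay between -0.04 and 0.06. With DESeq2 and with the exact test 3 of the 10 passed, and 4 without wild-type replicate 2. Of all tested genes 2.98%, 2.99% and 1.8% passed in these fits, in that order. The summed level of the 10 markers was 497 to 631 FPKM in *Ptpn6*+/mev and 715 to 868 in wild-type mice, without overlap. None of these markers was at 0. Of 7 markers of tubular injury, 4 (*Havcr1*, *Vcam1*, *Krt8* and *Krt18*) were higher and 0 lower, with a summed level of 3745 to 4886 and 3021 to 4327 FPKM. Of these 7, 2 passed the FDR with DESeq2, 1 with the exact test and 2 without wild-type replicate 2, all higher. In the last of these fits 5 were higher at an unadjusted p under 0.05, against 8.36% of all genes tested in it. The 4 endothelial, 5 macrophage and 3 tested neutrophil markers had no gene with an unadjusted p under 0.05, and of 5 distal nephron markers 1 (*Slc12a3*) was lower. Without wild-type replicate 2 the median log2 fold change turned from -0.43 to 0.21 for the distal nephron list, with 1 marker lower and 1 higher, and from 0.22 to -0.14 for the endothelial list, with 1 marker lower. The macrophage and neutrophil medians turned likewise, from 0.11 to -0.13 and from 0.02 to -0.14, with no marker at an unadjusted p under 0.05. The liver markers *Alb* (1.70 to 2.23 FPKM against 3.68 to 6.29 in wild-type mice) and *Apob* (4.06 to 4.87 against 6.24 to 19.9) were lower in every *Ptpn6*+/mev mouse and passed with DESeq2, with the exact test and without wild-type replicate 2. *Ttr*, the most abundant of the list, was at 25.5 to 38.1 FPKM against 19.2 to 30.6, with a log2 fold change of 0.31 (standard error 0.22). The part of the tubule markers in the lower GST and UGT levels was not tested.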

How the data were processed

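Poly-A mRNA of 6 left kidneys, 1 library per mouse, was sequenced as paired reads on an Illumina HiSeq. The deposited table gives, for each Ensembl gene, an estimated count and an FPKM value per library. The authors aligned the reads to GRCm38.p5, and the submitters' processing notes list Bowtie2, TopHat2 2.0.3.12, Cufflinks and RSEM, with no statement of which tool made the counts. Of 21367 genes, 1744 had an estimated count that was not whole (tolerance 1e-06), as shared reads give, and these deposited counts were rounded. FPKM was computed by the authors and was used without further scaling for levels, overlap of the groups, sums and figures. Annotation columns were not used.

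Groups and replicate numbers came from the labels, which name no batch. *Ptpn6*+/mev and wild-type libraries were compared with edgeR 4.0.16 (TMM, filterByExpr, quasi-likelihood test, Benjamini-Hochberg adjustment over 13036 genes, FDR under 0.05, two-sided) in R 4.3.3. Alternatives were DESeq2 1.42.0, edgeR's exact test, limma 3.58.1 on log2(FPKM + 1) and log2(FPKM + 0.1), other scalings and filters, a replicate block and each library left out. The scripts were tested on simulated counts. The p-values measure the spread between these mice, and the limit for a count of 0 covers counting error only. The pathway and marker lists were counted under DESeq2, the exact test and without wild-type replicate 2 after seeing the data.

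The genes named were, in each family, those with an FDR under 0.05, the 5 with the highest mean FPKM, and the 3 lower and 3 higher genes with the lowest p among those of at least 1 FPKM in a group. From each pathway list the gene with the lowest p in each direction was named. Other genes named were chosen after their values were seen. The families and gene lists were chosen with earlier results of these data known. Positions and junctions are from GENCODE M21 on GRCm38, and promoters from RefSeq on GRCm38.p6, with a window for 60 of the 68 genes.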

Additional observations from a re-analysis of the deposited data

How the results depend on the processing

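With DESeq2, 2 UGT and 5 GST genes passed the FDR, with edgeR's exact test 2 and 4, and 0 SULT genes passed under any alternative. Leaving out 1 library gave 0 to 1 UGT genes (1 without wild-type replicate 2) and 0 to 2 GST genes (2 without wild-type replicate 2, 1 without wild-type replicate 3). Over all genes 388 passed with DESeq2, 390 with the exact test, 8 with limma on log2(FPKM + 0.1), 52 without a filter and 1 to 237 with a library left out (237 without wild-type replicate 2, 67 without wild-type replicate 3, 1 without *Ptpn6*+/mev replicate 3). The replicate block left 1 gene, which was of none of the families. Same-numbered samples had correlations of -0.14, -0.18 and -0.13, and no sample correlated best with its own number, so the numbers were not taken as pairs.

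The UGT median log2 fold change was -0.19 with limma on log2(FPKM + 1) and -0.51 to -0.14 with a library left out (-0.14 without wild-type replicate 2). The GST median was -0.18 and -0.19 with limma at pseudocounts of 1 and 0.1, -0.37 over 26 genes without a filter and -0.35 to -0.13 with a library left out (-0.13 without wild-type replicate 2), and the SULT median was -0.42 to 0.44 (0.44 without wild-type replicate 2, 0.0098 without *Ptpn6*+/mev replicate 2), 0.094 and 0.11 with limma and 0.12 under the replicate block. On the limma scales 36.7% and 36.3% of all genes were lower, against 50.5% in the edgeR fit. The limma fits used FPKM with no TMM scaling, and the TMM factors of the edgeR fit were 1.02 to 1.03 in *Ptpn6*+/mev and 0.929 to 1.01 in wild-type libraries. The cause of the difference was not tested. Counts at an unadjusted p under 0.05, an alternative chosen after seeing the data, were 3 to 5 for UGT, 6 to 10 for GST and 0 for SULT genes that were lower, where the share of all tested genes went from 4.38% to 8.89%.

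Of 510 values of the named genes, 462 kept their direction and side of the threshold, 28 passed the FDR under the alternative alone and 20 changed sign. With a library left out, the log2 fold change lay between -0.47 and 0.020 for *Ugt3a2*, -0.38 and 0.38 for *Ugt3a1*, -0.22 and 0.76 for *Ugt2b37*, -0.19 and 0.15 for *Gsta2*, -0.89 and 0.96 for *Sult1d1*, -0.33 and 0.72 for *Sult1a1*, -0.00066 and 0.19 for *Gusb*, and -0.0044 and 0.41 for *Abcc3*. The upper ends for *Ugt3a2*, *Ugt3a1*, *Ugt2b37*, *Sult1d1* and *Sult1a1* and the lower end for *Gusb* were without wild-type replicate 2. With limma at pseudocounts of 1 and 0.1 the value was 0.0053 and 0.010 for *Ugt3a1* and 0.067 and 0.077 for *Sult1d1*. Under the replicate block it was -0.0015 for *Gsta2* and 0.10 for *Sult1d1*. With no change of sign, the range with a library left out was -0.91 to -0.04 for *Ugt2b38*, -0.68 to -0.32 for *Gstm5*, -0.63 to -0.26 for *Sult2b1*, 0.06 to 0.22 for *Gstcd*, 0.18 to 0.78 for *Slc26a1* and 0.29 to 0.85 for *Slc7a11*, the last at 0.058 and 0.12 with limma. The cause of these changes was not tested. Summing the Ugt1 genes to 1 leaves 6 other tested UGT genes, of which 5 were lower and 1 was lower at an unadjusted p under 0.05, so no value for the whole family was taken from it. The depth left 29 of the 68 genes untested, and a count of 0 allows up to 3 counts per library.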

Other observations

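Of the 8 genes of the families that lie between 87240493 and 87591594 on chromosome 5 (GRCm38), *Ugt2b37*, *Ugt2b38*, *Sult1b1*, *Sult1d1* and *Sult1e1* were each highest in wild-type replicate 2. This group and its bounds were chosen after the values were seen. *Ugt2b5*, a gene of the same chromosome outside these bounds, was also highest in that library. That library held the highest FPKM in 17 of the 39 tested genes of the families, and its share over all genes was not counted. *Sult1b1*, which was not tested, had 4, 3 and 6 counts in *Ptpn6*+/mev and 3, 15 and 7 in wild-type mice, and *Sult1e1* had 19 counts in wild-type replicate 2 and at most 2 elsewhere. *Ugt2a3*, which lies in the same interval, had 3, 7 and 2 counts in *Ptpn6*+/mev and 6, 2 and 0 in wild-type mice and was not highest in that library, and *Ugt2a1* and *Ugt2a2*, also there, had none. *Ugt2b34*, on the same chromosome, was highest in wild-type replicate 1 instead.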
